A study of Rattus norvegicus with 144 samples.

Results

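Livers of rats given the compound AMG B by mouth at 3 mg/kg once a day were set against livers of control rats given 0 mg/kg, on days 1, 4 and 14 of dosing. The samples were chosen by their labels. They are 12 arrays at 3 mg/kg (4 rats on each day) and 12 control arrays (4 rats on each day), 24 of the 144 arrays in the series. All the rats were male Sprague Dawley animals of 8 to 10 weeks, each rat has its own number, and each liver was hybridised to 1 Affymetrix array. AMG B is known here by its code name, the study describes its pharmacology as antiangiogenic, and the vehicle of the control doses is not given in the sources used here. For comparison, 12 livers at 60 mg/kg of AMG B, the adrenal glands of the same 24 rats and 24 livers of the AMG A study (12 at 3 mg/kg and 12 controls) were also read. The values are scores that the authors deposited. They look standardised for each probe set, with 1 unit perhaps its standard deviation (SD) over arrays. How they were made is not given, so a difference in scores gives no fold change and no quantity of RNA.

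Antiangiogenic compounds interrupt the signals, chiefly those of vascular endothelial growth factor (VEGF), by which endothelial cells grow and survive. The capillaries of the liver are sinusoids. Their lining is a fenestrated endothelium that carries scavenger receptors, and resident macrophages, the Kupffer cells, sit inside them. Blood in the sinusoids brings young red cells, the reticulocytes, which still hold RNA for the globins and for the haem enzyme Alas2. Hepatocytes raise CYP1 enzymes when the aryl hydrocarbon receptor is activated. Bulk liver RNA holds all of these cells together, so fewer cells of a type and less RNA per cell cannot be told apart in any of the results below.

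The larger of the deposited tables covered 31042 probe sets on 108 arrays and gave 14217 genes. Among the 24 livers an array's SD lay between 0.793 and 0.872 and its median between -0.029 and 0.0017, and no liver array of these stood apart. Among the livers at 60 mg/kg, rat 35 of day 14 did stand apart, with an SD of 0.990. Its highest correlation with another liver array was 0.48, against 0.62 for the next lowest liver, rat 31. Rat 35 stayed in the fits that used 60 mg/kg. As a check of the tissue, the mean score of 18 hepatocyte genes lay between 0.70 and 1.04 in the 24 livers, against -0.999 to -0.94 in adrenal glands. The mean score of 11 pancreas acinar genes lay between -0.44 and -0.42 in the same livers, against 1.54 to 3.04 in pancreas. The number of arrays limits the precision of all values.

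The first question was which liver transcripts 3 mg/kg changed over the days pooled. The beta globin Hbb, the transcriptional corepressor Irf2bp1 and the nucleic acid binding protein Ybx3 fell, and other red-cell transcripts were low without passing the test. With the day as a block, limma called 3 of 14217 genes at a Benjamini-Hochberg adjusted p under 0.05 (0.0211%), and all 3 fell. At an unadjusted p under 0.05, 529 genes were lower (3.72%) and 487 higher (3.43%). Over all genes the median difference was -0.0019 score units. The count of calls rested on single rats: without rat 8 or without rat 32, both at 3 mg/kg, it was 0, and without control rat 15 it was 9.

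Hbb (GRCr8 chromosome 1, 167662310 to 167663721) encodes the beta chain of haemoglobin. On day 1 its scores were 0.14, 0.21, 0.42 and -0.36 in the 4 rats at 3 mg/kg, against 0.63, 0.87, 0.66 and 0.55 in the 4 controls. On day 4 they were -0.94, -0.12, -0.46 and -0.93 at 3 mg/kg, against -0.098, 0.68, 0.80 and 0.11 in controls. On day 14 they were -0.091, -0.068, -0.26 and -0.15 at 3 mg/kg, against 0.53, 0.76, 0.41 and 0.70 in controls. On each day every rat at 3 mg/kg was below every control, and on day 4 the control values themselves spread widely, with 2 near 0 and 2 near 0.7. Pooled over days the difference was -0.77 ± 0.12 (standard error, n = 12 and 12), with an adjusted p of 0.0177 by limma. The Hbb probe set is of a type that can also bind near-identical globin transcripts, so its signal is uncertain between beta globin genes.

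Alas2, the enzyme that starts haem synthesis in red cells, had scores of 0.53, 0.88, 0.62 and -0.11 on day 1, -0.66, 0.15, -0.54 and -0.90 on day 4 and -0.099, 0.41, -0.053 and 0.44 on day 14 at 3 mg/kg. Control values were 1.12, 3.15, 1.26 and 1.02 on day 1, 0.46, 1.90, 2.51 and 0.56 on day 4 and 1.41, 2.01, 1.08 and 1.44 on day 14. Its groups did not overlap on any day either, and 1 control on day 1 was far above the other 3. The pooled difference of Alas2 was -1.44 ± 0.26 and just missed the threshold (adjusted p = 0.0513 by limma). Hba-a3, an alpha globin, ran from -0.95 to 0.84 (median 0.027) at 3 mg/kg and from 0.19 to 2.02 (median 0.95) in controls. The pooled difference of Hba-a3 was -0.96 ± 0.18 (adjusted p = 0.0588 by limma), again with no overlap within any day. Alas2, Hba-a3 and Hbb were the only genes of 14217 with every rat at 3 mg/kg below every control of its day on all 3 days, a count of 3 (0.0211%). No gene had every rat at 3 mg/kg above every control on all 3 days, a count of 0 (0%).

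**Figure D1:**
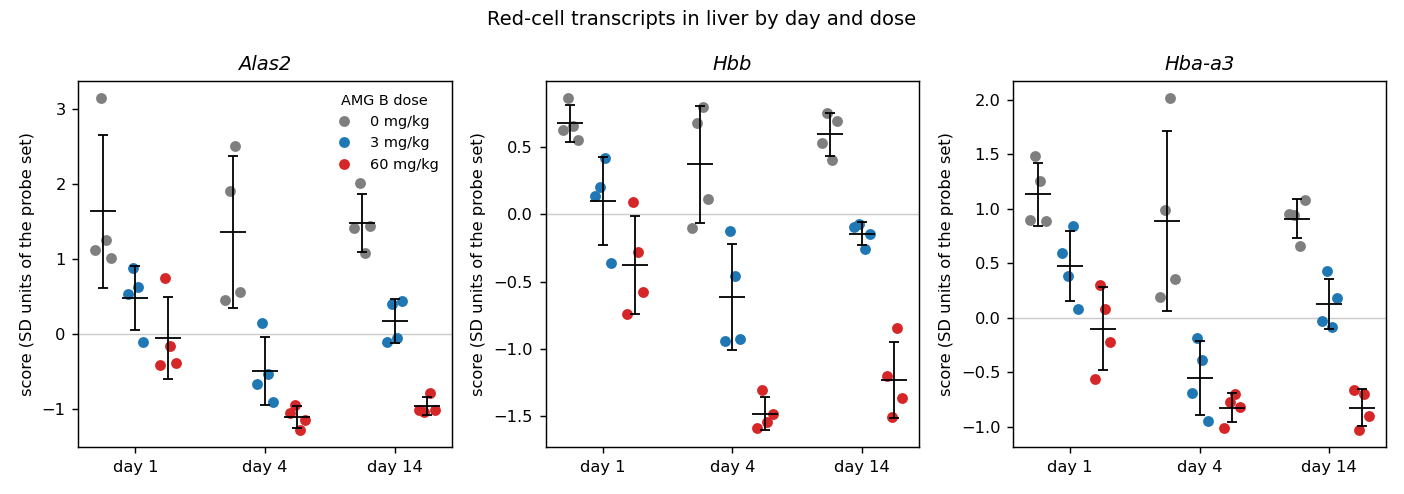
Scores of Alas2, Hbb and Hba-a3 in liver on days 1, 4 and 14. Each point is 1 rat (4 rats per dose and day, at 0, 3 and 60 mg/kg of AMG B), the horizontal bar is the mean and the whiskers are ± SD. On every day the points at 3 mg/kg lie below the control points of that day, and the means at 60 mg/kg are lower still.

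Of the 20 erythroid and globin genes listed, 15 were measured. Among these 1 fell and 0 rose, and 4 were lower at an unadjusted p under 0.05. Over all genes 0.0211% passed and 3.72% were lower at that unadjusted p. The list was chosen with earlier results of these data known, so its counts are not an independent test. The median difference of the list was -0.18, against -0.0019 over all genes. The fourth low member was Ahsp, the chaperone of free alpha globin, at 0.19 (median) in rats at 3 mg/kg against 0.58 in controls, a difference of -0.46 ± 0.17 (adjusted p = 0.563 by limma). The 5 members that were higher were Gypc (0.28) and Rhag (0.12) of the red-cell membrane, the transcription factor Klf1 (0.096), the membrane protein Epb42 (0.059) and the transferrin receptor Tfrc (0.057), with unadjusted p from 0.112 to 0.862. The anion exchanger Slc4a1 differed by -0.21, and by -0.44 on its other probe set, and the transcription factor Gata1 by -0.11. Summed as a mean score over the 15 members, the list ran from -0.008 to 0.44 in the rats at 3 mg/kg and from 0.11 to 0.91 in controls, so the groups overlapped.

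The promoters of the 3 red-cell genes that kept apart on all days are shown because these genes were low together. Each is a RefSeq sequence of assembly GRCr8, 300 bases that reach 250 bases before and 50 after the start of the gene, written 5′ to 3′ on the strand of the gene. They cover chrX:22895200-22895499 (plus strand) for Alas2, chr1:167663672-167663971 (minus strand) for Hbb and chr10:15816894-15817193 (minus strand) for Hba-a3. The start that the table uses for Alas2 lies inside the annotated gene (GRCr8 chromosome X, 22890650 to 22914046). Capitals mark matches on either strand to a GATA motif, to CACCC or to CCAAT. The GATA motifs searched were AGATAA and AGATAG and their forms with T in front, TGATAA and TGATAG (no matches overlap).
Alas2: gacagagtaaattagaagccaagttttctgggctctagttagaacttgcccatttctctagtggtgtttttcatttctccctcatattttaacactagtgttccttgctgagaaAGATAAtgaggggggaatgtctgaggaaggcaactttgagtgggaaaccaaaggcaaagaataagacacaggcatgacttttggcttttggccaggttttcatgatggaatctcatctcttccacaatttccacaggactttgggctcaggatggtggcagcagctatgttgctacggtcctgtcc
Hbb: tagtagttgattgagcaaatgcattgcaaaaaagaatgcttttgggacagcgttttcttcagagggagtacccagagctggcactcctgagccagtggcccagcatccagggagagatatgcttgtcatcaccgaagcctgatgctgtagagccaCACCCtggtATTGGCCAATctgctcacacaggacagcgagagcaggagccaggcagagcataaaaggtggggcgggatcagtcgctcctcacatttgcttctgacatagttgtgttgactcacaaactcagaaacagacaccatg
Hba-a3: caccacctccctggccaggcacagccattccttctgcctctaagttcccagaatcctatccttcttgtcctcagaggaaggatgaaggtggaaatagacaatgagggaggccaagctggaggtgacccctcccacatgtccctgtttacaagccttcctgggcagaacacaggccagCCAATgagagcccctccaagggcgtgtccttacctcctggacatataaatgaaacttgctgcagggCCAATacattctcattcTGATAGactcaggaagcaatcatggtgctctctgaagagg

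In the Alas2 promoter the only match was AGATAA, 136 bases before the start site, with 0 matches to CACCC or CCAAT. The Hbb promoter held CACCC 95 bases before the start, followed by CCAAT once on each strand, at 86 and 81 bases before it, and 0 GATA matches. In the Hba-a3 promoter CCAAT stood 73 and 7 bases before the start, and TGATAG stood 10 bases after it. Of 33469 promoters of the same length, 30.34% held a GATA motif, 54.87% CACCC and 37.49% CCAAT, so each of these matches is common.

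The same genes were read at the higher dose and in the adrenal glands of the same rats. At 60 mg/kg, which shares its control rats with 3 mg/kg, the difference from control was -1.58 for Hbb, -2.20 for Alas2 and -1.56 for Hba-a3. Taken directly, 60 minus 3 mg/kg was -0.81 for Hbb (adjusted p = 0.000157), -0.60 for Hba-a3 (adjusted p = 0.0239) and -0.76 for Alas2 (adjusted p = 0.0596, all by limma). In adrenal glands Hbb ran from -1.52 to -0.75 (median -1.11) at 3 mg/kg and from -0.98 to 0.14 (median -0.55) in controls. Adrenal differences were -0.64 for Hbb, -0.38 for Alas2 and -0.44 for Hba-a3, so all 3 means were lower in that organ too. The liver difference minus the adrenal difference was -0.13 for Hbb (adjusted p = 0.957), -1.05 for Alas2 (adjusted p = 0.225) and -0.52 for Hba-a3 (adjusted p = 0.709), none of which passed. That fit did not use the animal as a block, and with such a block none of the 3 passed either.

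Irf2bp1 (GRCr8 chromosome 1, 87780782 to 87783483), a corepressor that binds interferon regulatory factor 2, was the second gene to fall. On day 1 its scores were 0.41, 1.03, 0.19 and 0.25 at 3 mg/kg, against 0.67, 1.62, 1.59 and 1.70 in controls. On day 4 they were 0.38, 0.77, 0.66 and 0.54 at 3 mg/kg, against 1.36, 1.47, 0.52 and 1.43 in controls. On day 14 they were 0.36, 0.37, 0.65 and 0.32 at 3 mg/kg, against 1.42, 1.34, 1.47 and 1.31 in controls. The groups did not overlap on day 14, and on days 1 and 4 they overlapped through 1 low control on each day. The pooled difference was -0.83 ± 0.13 (adjusted p = 0.0177 by limma). At 60 mg/kg the difference from the same controls was -0.45, an estimate smaller in size. Taken directly, 60 minus 3 mg/kg was 0.38, which did not pass (adjusted p = 0.173 by limma). Interferon-inducible genes, a list of 22 measured members, had 18 higher and 4 lower with a median difference of 0.053, and 0 passed. The days differed in direction, with 22 of 22 lower on day 1 (median -0.17), 4 on day 4 (median 0.20) and 7 on day 14 (median 0.15), which was not tested. Its member with the smallest p was the antiviral enzyme Rsad2, at -0.60 to 1.91 (median 0.02) in rats at 3 mg/kg and -0.64 to 2.45 (median 1.44) in controls (difference -0.89, adjusted p = 0.505).

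Ybx3 (GRCr8 chromosome 4, 166861180 to 166884532), a cold shock domain protein that binds DNA and RNA, had the smallest difference of the genes that passed. Its scores on day 1 were -0.28, -0.26, -0.27 and -0.32 at 3 mg/kg, against -0.015, 0.12, 0.016 and -0.20 in controls. Day 4 gave -0.83, -0.53, -0.58 and -0.81 at 3 mg/kg, against -0.37, -0.14, -0.14 and -0.53 in controls, and day 14 gave -0.24, -0.62, -0.69 and -0.50 at 3 mg/kg, against -0.24, -0.11, -0.25 and -0.12 in controls. Each of the 12 rats at 3 mg/kg lay below the mean of its day's controls. How many of all genes had every rat on 1 side of its day's control mean was not counted. Here and below, such a pattern is therefore a description only. The pooled difference was -0.33 ± 0.057 (adjusted p = 0.0373 by limma). At 60 mg/kg the difference was -0.45, and 60 minus 3 mg/kg was -0.12, which did not pass (adjusted p = 0.279).
The call of Ybx3 ended in 15 of the 24 fits that left out 1 rat (adjusted p up to 0.10), that of Irf2bp1 without rat 3, 8, 14 or 32 (up to 0.0519) and that of Hbb without rat 8 or 32 (up to 0.0507). Alas2 and Hba-a3 passed under several alternatives (adjusted p down to 0.00402 for each when all 36 liver arrays were fitted by group).

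**Figure D2:**
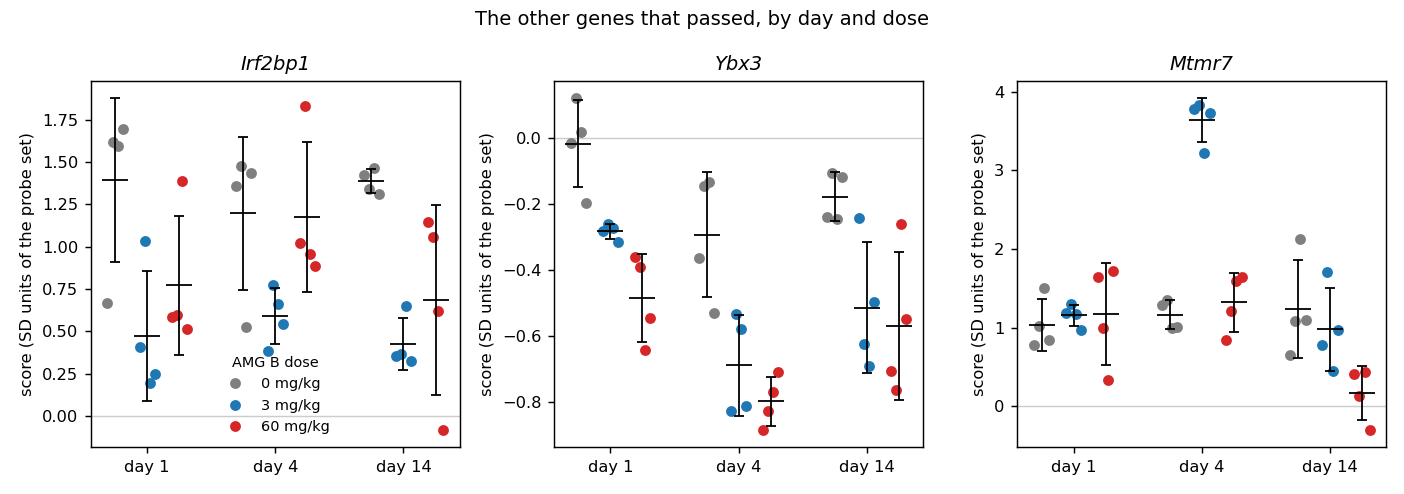
Scores of Irf2bp1, Ybx3 and Mtmr7 in liver on days 1, 4 and 14. Each point is 1 rat (4 rats per dose and day, at 0, 3 and 60 mg/kg of AMG B), with the mean as a bar and ± SD as whiskers. The 4 rats at 3 mg/kg on day 4 stand alone in Mtmr7, between 3.23 and 3.83.

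The next genes by pooled p did not pass and are given as values. Among lower ones, Egfl6, a secreted protein with epidermal growth factor repeats, had scores of -1.63 to 0.10 (median -0.62) at 3 mg/kg and -1.03 to 1.55 (median 0.83) in controls. Its difference was -1.28 ± 0.25, with every one of the 12 rats at 3 mg/kg below its day's control mean (adjusted p = 0.0795 by limma). Gkn1, a gastrokine of the stomach lining, differed by -1.26 (adjusted p = 0.0795), the RNA helicase Ddx25 by -0.38 (adjusted p = 0.0795), the fibrillarin-like Fbll1 by -0.43 (adjusted p = 0.108) and Pank1, an enzyme of coenzyme A synthesis, by -0.34 (adjusted p = 0.108).
Among higher ones, Pts of tetrahydrobiopterin synthesis ran from -0.37 to 0.079 (median -0.068) at 3 mg/kg and from -0.70 to -0.052 (median -0.35) in controls (difference 0.25 ± 0.048, adjusted p = 0.0795 by limma). The homeobox factor Rax differed by 0.94 (adjusted p = 0.0975), though its other probe set differed by -0.11. The DNA repair nuclease Apex2 differed by 0.80 and Gpt2, the mitochondrial alanine aminotransferase, by 0.79 (adjusted p = 0.108 for each). Gpt2 had scores of 0.19 to 1.91 (median 1.11) at 3 mg/kg and -0.48 to 0.66 (median 0.34) in controls, and its other probe set differed by 0.48 in the same direction. The potassium channel Kcnj4 (0.46, and -0.072 on its other probe set), Plekha6 (0.16), the peroxisome import protein Pex14 (0.39), the lipid transfer protein Osbpl8 (0.54) and the spindle protein Aspm (0.57) had adjusted p from 0.121 to 0.174.

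Each day was then tested alone, with all 36 livers of the AMG B study sharing an estimate of the spread. Mtmr7 (GRCr8 chromosome 16, 58344755 to 58435682), a phosphatase of the myotubularin family that removes a phosphate from phosphoinositide lipids, rose on day 4, and Hba-a3 fell on that day. These were the 2 genes called on day 4 (0.0141%), with 810 at an unadjusted p under 0.05. On day 1 limma called 0 (0%), with 653 at an unadjusted p under 0.05. On day 14 the count was again 0 (0%), with 957 at an unadjusted p under 0.05.

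Mtmr7 on day 4 scored 3.78, 3.83, 3.23 and 3.73 in the 4 rats at 3 mg/kg, against 1.29, 1.34, 1.00 and 1.01 in controls. No score of any other liver of the AMG B study reached this level: the highest elsewhere was 2.12, in a control of day 14. The day 4 difference was 2.48 ± 0.29 (adjusted p = 3.3e-05 by limma). On day 1 Mtmr7 averaged 1.16 ± 0.14 at 3 mg/kg and 1.03 ± 0.33 in controls, and on day 14 0.98 ± 0.53 at 3 mg/kg and 1.24 ± 0.63 in controls (SD, n = 4 each). At 60 mg/kg on day 4 it averaged 1.32 ± 0.38, near the controls. In the adrenal glands of the same day 4 rats it averaged -0.20 ± 0.14 at 3 mg/kg and -0.32 ± 0.15 in controls. The test of whether the 3 days differ, an F test in limma, called 1 gene (0.00703%), Mtmr7, whose day 4 effect exceeded its day 1 effect by 2.36 (adjusted p = 0.00504). Mtmr7 is represented by 1 probe set. Of the 14 measured myotubularin genes, 1 passed on day 4, and the list's median difference on that day was 0.036.

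Hba-a3 on day 4 scored -0.69, -0.18, -0.38 and -0.95 at 3 mg/kg, against 0.19, 0.99, 2.02 and 0.36 in controls. The groups did not overlap, and 1 control stood well above the others. The difference was -1.44 ± 0.26 (adjusted p = 0.0426 by limma), and this call ended without rat 14, 15, 17, 19 or 20, with only the 8 or the 24 compared arrays fitted, or after quantile normalization (adjusted p from 0.0583 to 0.582). On the same day the differences were -0.99 for Hbb (adjusted p = 0.0957) and -1.84 for Alas2 (adjusted p = 0.172). On days 1 and 14 the differences were -0.58 and -0.74 for Hbb and -1.15 and -1.31 for Alas2. The test of day dependence passed for none of these red-cell genes (adjusted p = 1 for Hbb, 1 for Alas2 and 0.984 for Hba-a3).

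On days 1 and 14, where no gene passed, the smallest p values belonged to genes of mixed function. On day 1 the higher ones were Chm, an escort protein of Rab GTPases (0.82), Alg5, which makes glucose donors for protein glycosylation (0.43), the ubiquitin ligase Ankib1 (0.91) and Cyp1a2 (0.48). The lower ones were Zmynd15 (-1.22), the chromatin remodeller Ep400 (-1.70), the presynaptic protein Rims3 (-0.82) and the guanylate cyclase Gucy2d (-1.25). Their adjusted p ranged from 0.215 to 0.629. On day 14 the higher ones were Fam78b (2.15), the proton pump assembly factor Vma21 (0.62), the microtubule linker Hook1 (0.62) and the collagenase Mmp13 (2.79). Mmp13 scored 3.19, 3.24, 3.92 and 0.10 at 3 mg/kg on day 14, against -0.32, -0.22, -0.45 and 0.28 in controls, so 1 of the 4 rats at 3 mg/kg was near the controls. The lower ones on day 14 were Tsr3, which modifies ribosomal RNA (-0.83), Zcchc10 (-0.82), Fahd2a (-1.08) and the ubiquitin ligase Siah1 (-0.56), and the adjusted p of these 8 ranged from 0.206 to 0.275. Without rat 32, 6 genes passed on day 14, Mmp13 among them at 3.63 (adjusted p = 0.00193).

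The low dose was next set against the high dose, with no control array in the comparison. Cyp1a1, an enzyme that oxidises aromatic compounds and the gene with the largest rise at 60 against 3 mg/kg, had scores at 3 mg/kg that lay within those of controls or close to them. Pooled over days, 60 and 3 mg/kg differed in 520 of 14217 genes (3.66%), 273 higher and 247 lower at 60 mg/kg. Cyp1a1 ran from -0.32 to -0.27 (median -0.30) in controls, from -0.33 to -0.26 (median -0.29) at 3 mg/kg and from 1.37 to 4.70 (median 3.20) at 60 mg/kg. The difference of Cyp1a1 between 3 mg/kg and control was 0.0041 with a 95% interval of -0.036 to 0.044, and between 60 and 3 mg/kg it was 3.50 ± 0.16 (adjusted p = 1.62e-15 by limma). Cyp1a2, the constitutive CYP1 enzyme of liver, had scores of 0.58 to 1.07 (median 0.87) at 3 mg/kg and 0.31 to 1.00 (median 0.45) in controls. All 12 rats at 3 mg/kg were above their day's control mean, and the difference of 0.37 ± 0.077 did not pass (adjusted p = 0.106), with a passing value when all 36 liver arrays were fitted by group (adjusted p = 0.0259) or without rat 28 (adjusted p = 0.0279). At 60 mg/kg Cyp1a2 ran from 1.19 to 1.78 (median 1.36), higher than at 3 mg/kg by 0.51 (adjusted p = 0.000142).

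Ifitm10, a member of the interferon-induced transmembrane family, scored -0.56 to 0.32 (median -0.13) in controls, -0.12 to 0.54 (median 0.24) at 3 mg/kg and 1.13 to 2.43 (median 1.78) at 60 mg/kg. At 3 mg/kg the difference was 0.33 ± 0.093 (adjusted p = 0.338), and 60 exceeded 3 mg/kg by 1.55 (adjusted p = 1.22e-10). The next largest rises at 60 against 3 mg/kg were the glutathione transferase Gsta3 (2.13), the quinone reductase Nqo1 (1.96) and the G protein regulator Rgs16 (1.65). At 3 mg/kg these 3 differed from control by -0.14, -0.12 and 0.029, and none passed. The largest falls at 60 against 3 mg/kg were the leukocyte receptor Lilra5 (-1.61), the phospholipase Pla2g4a (-1.47), the scavenger receptor Stab1 (-1.41) and the phosphatase Ssh2 (-1.37), with adjusted p from 0.000536 to 0.0344. The call of Lilra5 ended in 9 of the 24 fits that left out 1 rat (adjusted p up to 0.0636). Fam167b scored 0.098 to 1.92 (median 0.85) in controls, -0.40 to 1.12 (median 0.41) at 3 mg/kg and -1.29 to -0.37 (median -0.86) at 60 mg/kg, so that the median at 3 mg/kg lay between the other two (difference from control -0.52, adjusted p = 0.544).

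**Figure D3:**
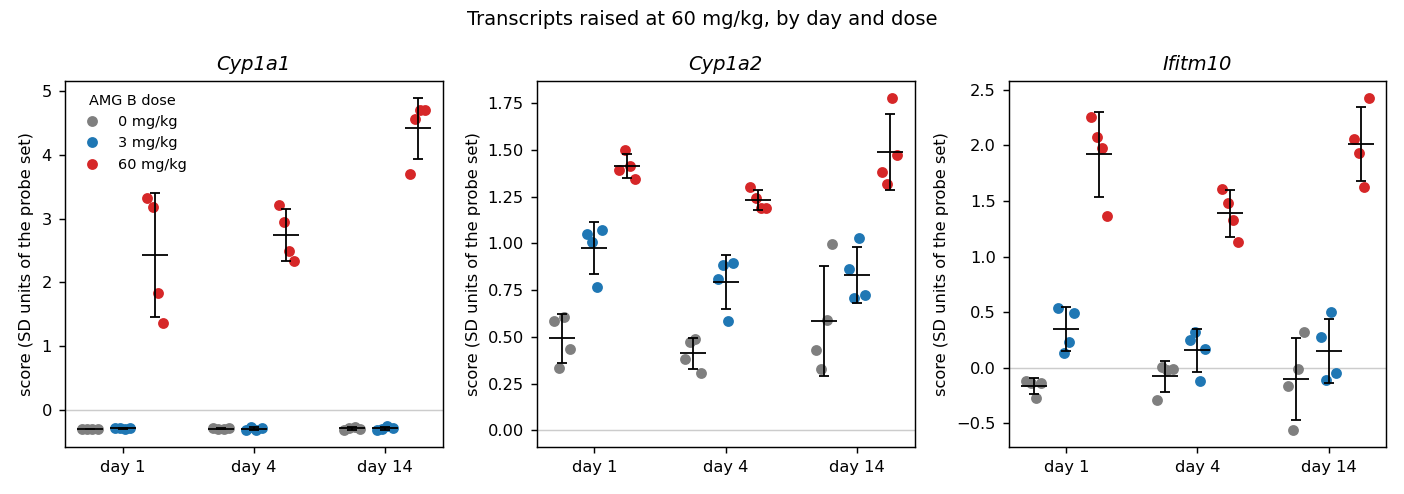
Scores of Cyp1a1, Cyp1a2 and Ifitm10 in liver on days 1, 4 and 14. Each point is 1 rat (4 rats per dose and day, at 0, 3 and 60 mg/kg of AMG B), with the mean as a bar and ± SD as whiskers. Cyp1a1 at 3 mg/kg lies on the controls, while the Cyp1a2 means at 3 mg/kg lie between those at 0 and 60 mg/kg on each day.

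Cells of the sinusoid were examined next, since the study names an antiangiogenic pharmacology. This list and the others were chosen with earlier results of these data known, so their counts are not an independent test. Of 12 measured genes of sinusoidal endothelium, 10 were lower at 3 mg/kg and 8 of them at an unadjusted p under 0.05, but 0 passed after adjustment. Over all genes 50.7% were lower, and 3.72% lower at that unadjusted p. The median difference was -0.31, against -0.0019 over all genes. The hyaluronan scavenger receptor Stab2 scored -0.28 to 1.64 (median 0.56) at 3 mg/kg and -0.12 to 3.63 (median 1.57) in controls. All 12 rats at 3 mg/kg lay below their day's control mean, a pattern whose share over all genes was not counted. The groups overlapped on every day, and the controls of day 14 alone covered the whole control range (difference -1.11 ± 0.33, adjusted p = 0.378 by limma). Lyve1, another hyaluronan receptor, averaged 1.10 ± 0.41 at 3 mg/kg and 2.31 ± 0.46 in controls on day 1, and 0.21 ± 0.50 at 3 mg/kg and 1.41 ± 0.32 in controls on day 4. On day 14 it averaged 1.32 ± 0.57 at 3 mg/kg and 1.30 ± 1.10 in controls (SD, n = 4 each), so the means were nearly equal on that day. Pooled, Lyve1 differed by -0.79 ± 0.26 (adjusted p = 0.495), and its other probe set by -0.54.

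Other low members were the receptor Gpr182 (-0.46), the membrane remodelling protein Ehd3 (-0.41), the hepatocyte growth signal Wnt2 (-0.39), the nuclease Dnase1l3 (-0.32), the Fc receptor Fcgr2b (-0.30) and the ligand Bmp2 (-0.24), with unadjusted p from 0.00349 to 0.049. Ehd3 and Wnt2 were below the day's control mean in all 12 rats at 3 mg/kg, although the other probe set of Wnt2 differed by 0.12. Rspo3, an enhancer of Wnt signals, was the exception at 0.53 (unadjusted p = 0.0151), and its other probe set differed by -0.0081. The scavenger receptor Stab1 (-0.31), coagulation factor F8 (0.10) and the transcription factor Gata4 (-0.028) had intervals that held 0. By day the list's median was -0.28 on day 1, -0.51 on day 4 and -0.12 on day 14. At 60 mg/kg, against the same controls, the median was -0.80 and 8 of 12 passed, where 1010 of 14217 genes passed in all (7.1%). As a mean score the list ran from 0.12 to 0.94 at 3 mg/kg and from 0.31 to 1.57 in controls.

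Macrophage markers lay in the same direction. Of 14 measured, 12 were lower at 3 mg/kg, 2 at an unadjusted p under 0.05, and 0 passed. Over all genes 50.7% were lower, and 3.72% lower at that unadjusted p. The median difference was -0.30, and -1.23 at 60 mg/kg, where 12 of 14 passed, against 7.1% of all genes. By day it was -0.39 on day 1, -0.17 on day 4 and -0.16 on day 14. The mannose receptor Mrc1, which sinusoidal endothelium also carries, scored 0.19 to 1.67 (median 1.14) at 3 mg/kg and 0.993 to 2.33 (median 1.496) in controls (difference -0.50 ± 0.14, adjusted p = 0.378). The complement chain C1qa differed by -0.43 and the lysosomal protein Cd68 by -0.59. Clec4f, the lectin that defines Kupffer cells in rodents, differed by -0.13 with a 95% interval of -0.40 to 0.14. As a mean score the macrophage list ran from 0.026 to 1.318 at 3 mg/kg and from 0.325 to 2.099 in controls. Sinusoidal endothelial genes and macrophage markers both leaned low in the group at 3 mg/kg. Whether they were low in the same livers was not tested, nor was the part of either cell type in the other list's values.

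**Figure D4:**
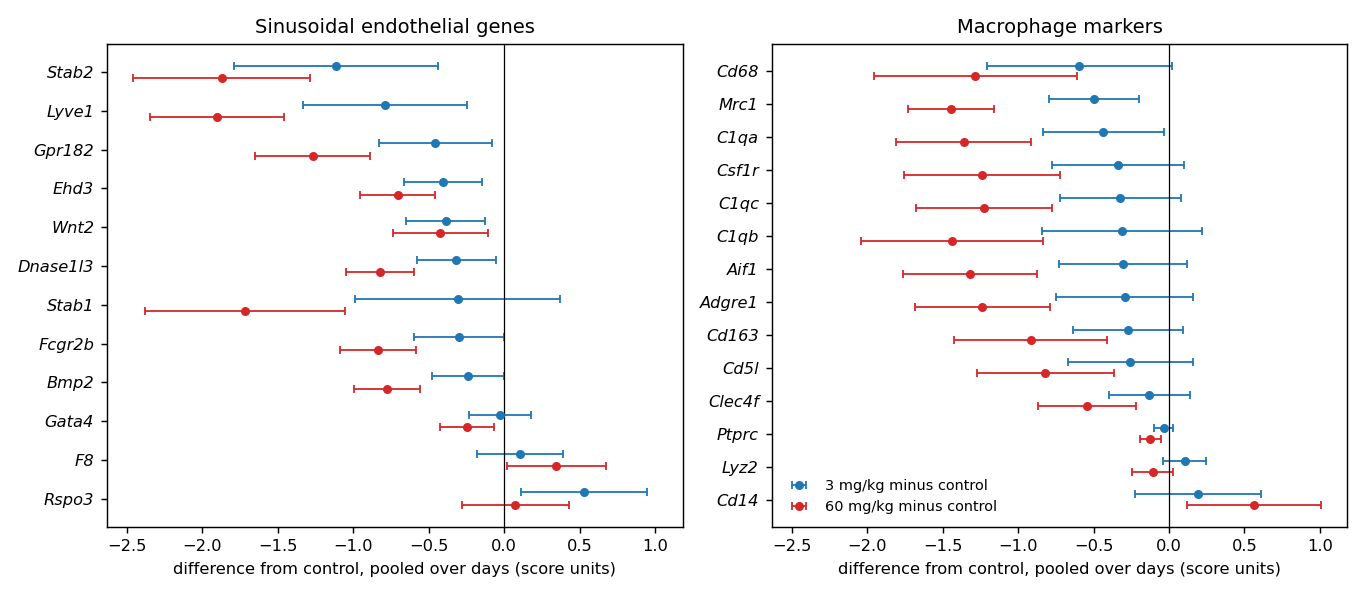
Pooled differences from control in score units for the 12 sinusoidal endothelial genes and the 14 macrophage markers measured. Points are limma estimates and bars 95% intervals, blue for 3 mg/kg and red for 60 mg/kg (12 rats each, against the same 12 controls). Most blue points lie left of 0 and closer to 0 than the red points of the same gene, and Rspo3, F8, Cd14 and Lyz2 are the blue points right of 0.

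General vessel genes had medians nearer 0 in score units, whose size may differ between lists. Over the 24 livers the SD of the list's mean score was 0.133 for endothelial genes and 0.353 for sinusoidal endothelial genes. Whether the sinusoidal genes changed more was therefore not tested. Of 10 VEGF ligands and receptors 8 were lower and 0 passed, with a median difference of -0.053. At an unadjusted p under 0.05 by limma 2 were lower, Flt4 and the coreceptor Nrp1 (-0.30), against 3.72% of all genes. The lymphatic VEGF receptor Flt4, which sinusoids also carry, scored -0.84 to -0.53 (median -0.57) at 3 mg/kg and -0.64 to -0.17 (median -0.45) in controls, with all 12 rats at 3 mg/kg below their day's control mean (difference -0.17 ± 0.048, adjusted p = 0.339 by limma). The ligand Vegfa differed by 0.071, and the receptors Kdr by -0.082 and Flt1 by -0.19, all with 95% intervals that held 0. The other probe set of Kdr differed by -0.37 (unadjusted p = 0.0492). Among 5 angiopoietin and Tie genes 0 passed (median -0.18), the ligand Angpt1 having the smallest p (-0.19, unadjusted p = 0.176) and the receptor Tek differing by -0.20. Of 22 endothelial genes 15 were lower, 3 of them at an unadjusted p under 0.05, and 0 passed (median -0.055). The transcription factor Sox17 led by p (-0.25, unadjusted p = 0.0127 by limma), and the others were Ramp2 (-0.39) and Mmrn2 (-0.49). Lists of tip-cell genes (median -0.0001 over 18, Fam167b with the smallest p), pericyte and smooth muscle genes (0.0012 over 13, the proteoglycan Cspg4 at 0.30), stellate cell genes (-0.044 over 9, the neurotrophin receptor Ngfr at -0.53) and hypoxia-inducible genes (-0.014 over 25, the glycolytic regulator Pfkfb3 at -0.64, with 0.0036 and -0.15 on its other probe sets) had 0 members that passed. Of 20 matrix genes 13 were lower and 0 passed (median -0.02). Sparc, a collagen-binding matrix protein, was below its day's control mean in all 12 rats at 3 mg/kg (-0.13 ± 0.035, adjusted p = 0.314), and its other probe set differed by -0.12.

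Hepatocyte genes and most liver functions had median differences close to that of all genes. If a unit is an SD over arrays of all tissues, genes that differ between tissues have a large unit. The sizes of their differences therefore cannot be compared with those of other lists. Over 18 hepatocyte identity genes the median difference was -0.0041, with Apoa1, a protein of high density lipoprotein, having the smallest p (-0.10, unadjusted p = 0.0738). Sterol synthesis genes leaned low, with 16 of 19 lower and a median of -0.097, but by day the median was -0.28 on day 1, 0.048 on day 4 and -0.073 on day 14, and 0 passed (smallest p: the synthesis enzyme Mvd, -0.21). Proteasome subunits had 22 of 24 lower (median -0.085, 0 passed, Psmc4 at -0.27), with medians of 0.015 on day 1, -0.21 on day 4 and -0.12 on day 14. Members of such a complex vary together, so a count of them is not a count of independent genes. Endoplasmic reticulum chaperones had 16 of 19 higher (median 0.069, 0 passed, Sdf2l1 at 0.34), with medians of -0.10 on day 1, where 14 were lower, 0.097 on day 4 and 0.21 on day 14. As a mean score they ran from -0.058 to 1.49 at 3 mg/kg, around the 0.002 to 0.58 of controls. Urea cycle and amino acid breakdown genes had 17 of 19 higher (median 0.063), with medians of 0.17 on day 1, 0.26 on day 4 and -0.074 on day 14, and the glutaminase Gls2 at 0.20. Respiratory chain subunits had 18 of 25 higher (median 0.056, but -0.046 on day 14, Uqcrc2 at 0.11).

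Cell cycle genes had a median of -0.03 at 3 mg/kg over 32 members with 0 passing (smallest p: the mitotic cyclin Ccnb1, -0.19), against 0.39 at 60 mg/kg where 6 passed (against 7.1% of all genes). Aryl hydrocarbon receptor targets had a median of 0.019 over 8, against 0.61 at 60 mg/kg, and Cyp1a2 was their one member whose unadjusted p at 3 mg/kg was under 0.05. In the drug metabolism lists, CYP2 and CYP3 enzymes (-0.0099 over 21, the xenobiotic receptor Nr1i2 at 0.15), glutathione transferases (-0.0098 over 19, Gstt1 at 0.15) and NRF2 genes (-0.044 over 16, Gstp1 at -0.059 and below its day's control mean in all 12 rats) held 0 genes that passed. In lipid lists 0 genes passed either, with fatty acid synthesis at -0.006 over 16 (the desaturase Fads2 at -0.30), fatty acid oxidation at 0.019 over 19 (the dehydrogenase Acadl at 0.21) and bile acid genes at -0.051 over 17 (the sterol exporter Abcg5 at -0.69, unadjusted p = 0.0113). The acute phase list had a median of 0.013 over 23. Il1rn, the interleukin 1 receptor antagonist, was its leading member, at 0.58 to 2.13 (median 1.09) in rats at 3 mg/kg and -0.20 to 1.17 (median 0.67) in controls (difference 0.51, adjusted p = 0.388). Among glucose genes (median 0.011 over 14) the glucokinase regulator Gckr was below its day's control mean in all 12 rats at 3 mg/kg, with scores of 0.74 to 1.64 (median 1.04) at 3 mg/kg and 0.91 to 1.84 (median 1.46) in controls (-0.35 ± 0.083, adjusted p = 0.174). Nnmt, which methylates nicotinamide, led the tryptophan and NAD list at 0.37 (median 0.043 over 13, unadjusted p = 0.00348).

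In the other lists 0 genes passed. Growth hormone and IGF genes had a median of -0.064 over 17 (Igfbp3 at -0.24), clock genes 0.012 over 17 (Per2 at -0.27, and 0.23 for its other probe set) and immediate early genes -0.039 over 16 (Fosl1 at 0.40). Glucocorticoid-responsive genes had a median of 0.018 over 16 (the tryptophan oxygenase Tdo2 at 0.16), and ATF4 genes 0.009 over 21 (Shmt2 at 0.13). Among other cell types, lymphocyte markers had a median of -0.018 over 16 (Cd8b at -0.092), neutrophil and inflammatory genes -0.072 over 16 with 13 lower (6 on day 14, the receptor Csf3r at -0.58, unadjusted p = 0.02) and bile duct genes 0.018 over 8 (Cldn4 at 0.16). Genes of acinar pancreas (median 0.0, Cela1 at 0.024), fat (-0.0099, Plin1 at 0.35) and skeletal muscle (-0.0024, Tnni2 at -0.13) held 0 genes that passed.

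**Figure D5:**
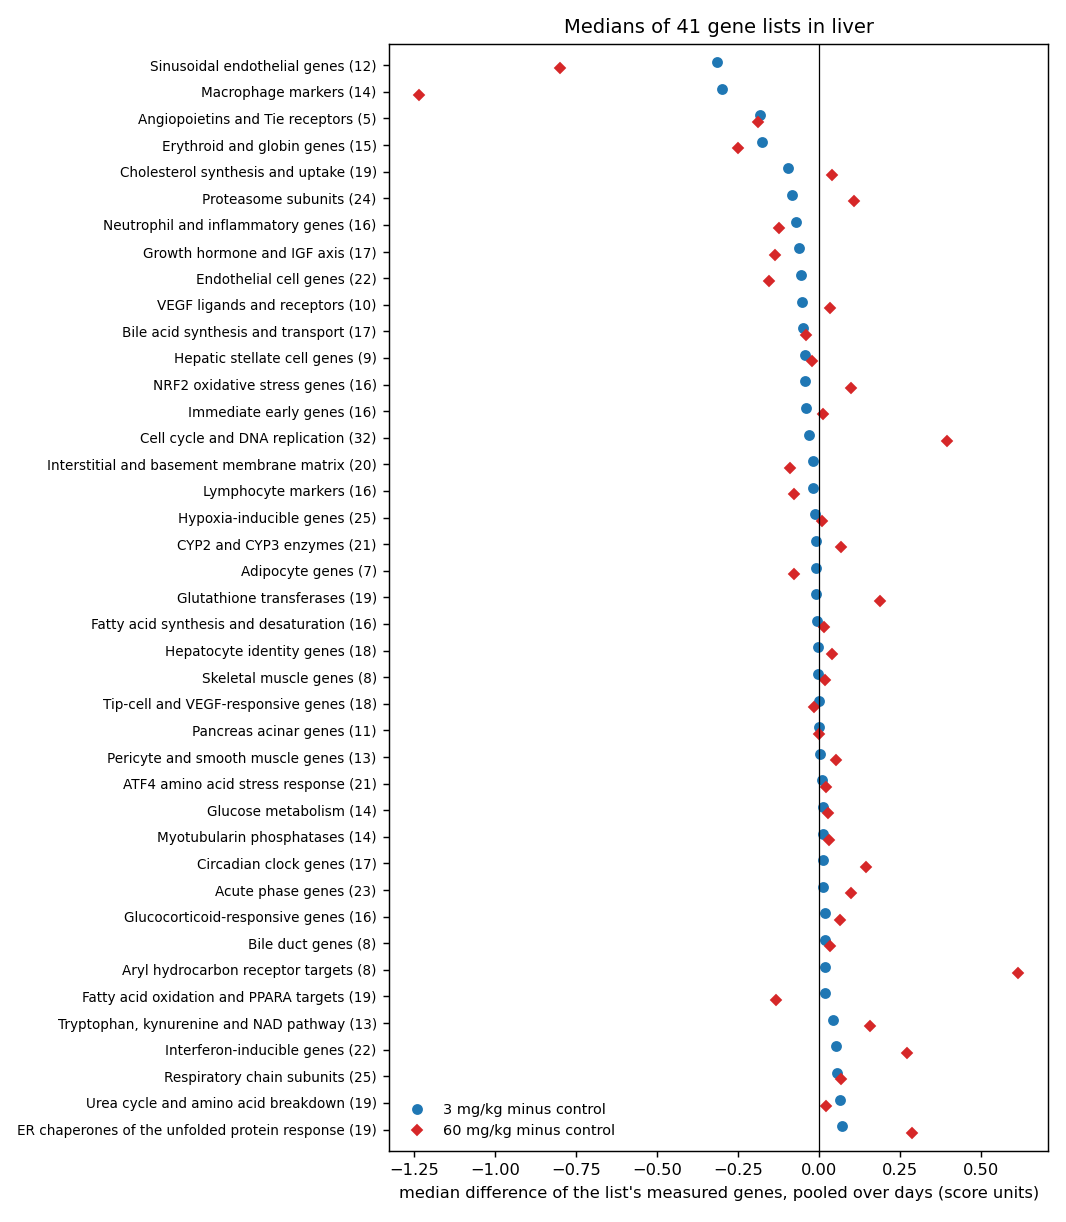
Median pooled difference from control, in score units, of the measured genes of 41 lists (number of genes in brackets). Blue circles are 3 mg/kg and red diamonds 60 mg/kg, each against the same 12 control livers. The sinusoidal endothelial and macrophage lists have the lowest medians at 3 mg/kg (-0.31 and -0.30), and the other blue circles lie between -0.18 and 0.069. A score unit may differ in size between lists, so this order does not rank the lists by response.

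Whether the liver answered the low dose differently from the adrenal gland of the same rats was tested last. The difference of the 2 effects passed for 2 of 14217 genes (0.0141%). Emcn, the endothelial sialomucin endomucin, scored -0.92 to -0.58 (median -0.71) at 3 mg/kg and -0.76 to -0.51 (median -0.67) in controls in liver. In adrenal glands it scored 0.92 to 1.43 (median 1.23) at 3 mg/kg and 1.49 to 2.55 (median 1.85) in controls, with no overlap over all days together. The liver effect of Emcn was -0.057, the adrenal effect -0.72 and liver minus adrenal 0.66 ± 0.11 (adjusted p = 0.00835 by limma, and 0.0436 with the animal as a block). In both groups the liver scores of Emcn lay far below the adrenal scores. Irf2bp1 differed the other way, with an effect of -0.83 in liver and 0.039 in adrenal glands. Liver minus adrenal was -0.87 ± 0.15 for Irf2bp1 (adjusted p = 0.00835), a call that ended with the animal as a block (adjusted p = 0.0555). Fam167b (-1.20 in adrenal, -0.52 in liver), Tek (-1.02 and -0.20) and Ehd3 (-1.03 and -0.41) had larger adrenal than liver values, and their differences did not pass (adjusted p = 0.525, 0.418 and 0.525).

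Livers of the AMG A study at 3 mg/kg were measured on another array type and are set beside these values without a test. Whether a score unit means the same on both array types is not known, so sizes cannot be compared between the studies. Pooled over the same days (n = 12 each), Cyp1a2 averaged 0.69 ± 0.12 at 3 mg/kg of AMG A and 0.30 ± 0.13 in its controls, a difference of 0.39 beside 0.37 for AMG B. Hbb averaged 1.33 ± 0.71 at 3 mg/kg of AMG A and 1.31 ± 0.47 in its controls, with nearly equal means. The differences under AMG A were 0.35 for Alas2, 0.27 for Hba-a3, -0.24 for Irf2bp1 and 0.21 for Ybx3, beside -1.44, -0.96, -0.83 and -0.33 for AMG B. Cyp1a1 differed by 0.0006 and Mtmr7 by -0.01 under AMG A.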

How the data were processed

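Liver RNA of the AMG B study was hybridised to 1 Affymetrix array per rat, from 5 ug of total RNA by a one-cycle biotin labelling, per the labels' protocols. The authors deposited a score per probe set and array, which looks standardised across arrays, with a mean near 0 and an SD near 1. Exact scaling over the arrays of each type could not give the highest scores, 11.85 over 108 arrays and 10.2 over 36. How these scores were made is not given in the sources used here, so dim probe sets could not be told from bright ones and no fold change can be had. Scores were used as deposited. No file carries a scan date or batch.

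Where a gene had several probe sets (4525 genes), the one whose variance over the 108 arrays lay most between tissues stood for it. Of 31042 probe sets, 20826 had 1 gene symbol, 436 several and 9780 none. Symbols were updated through Entrez numbers to the RefSeq table of GRCr8, from which promoters were also taken.

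Tests were two-sided, in limma 3.58.1 (R 4.3.3, lmFit and eBayes with trend), with Benjamini-Hochberg adjustment over 14217 genes and a threshold of 0.05. The pooled effect used 24 arrays with day as a block. Days, day dependence and 60 against 3 mg/kg used group means on 36 arrays, and liver against adrenal used 48 arrays. Liver and adrenal arrays of a rat share an animal by design, per the labels. Their deviations from group means correlated at a median of 0.054 over 24 pairs, against -0.00053 over 552 pairs of different animals, and a fit with the animal as a block was an alternative. The others were quantile normalization, the mean of probe sets, genes higher in liver, other sets of arrays, each rat left out, and, added after seeing the data, all probe sets. The scripts were tested on simulated data.

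Genes named are those past the threshold, filled in each direction by smallest p where few passed, the member of smallest p in each list, and 15 genes always read. Further list members were named for their role. The members and lists were chosen with earlier results of these data known.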

Additional observations from a re-analysis of the deposited data

Results flagged for a closer look

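In groups of 4 rats, 7 of 72 groups of the 12 genes read in detail held a value apart from the other 3 by Dixon's test, where chance gives about 1 in 20. At 3 mg/kg, Irf2bp1 was 0.65 in rat 31 on day 14, against 0.32 to 0.37 in the other 3 rats, and Stab2 was 1.64 in rat 6 on day 1, against 0.51 to 0.64. The other 5 values apart were in controls. Alas2 was 3.15 in rat 2 on day 1, against 1.02 to 1.26 in the other controls of that day. Irf2bp1 was 0.67 in rat 1 on day 1 (1.59 to 1.70 in the others) and 0.52 in rat 15 on day 4 (1.36 to 1.47 in the others). Ifitm10 was -0.27 in rat 3 on day 1 (-0.14 to -0.12 in the others) and -0.29 in rat 13 on day 4 (-0.023 to 0.0083 in the others).

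The effect of 3 mg/kg on Mtmr7 differed between days, by 2.36 between day 4 and day 1 (adjusted p = 0.00504 by limma's F test). All 4 rats at 3 mg/kg on day 4 were above every other liver of the AMG B study. The effects in liver and adrenal glands differed by 0.66 for Emcn and by -0.87 for Irf2bp1 (adjusted p = 0.00835 each by limma). Both tissues come from the same rats, and with the animal as a block the adjusted p was 0.0436 for Emcn and 0.0555 for Irf2bp1, whose call ended. In a fit over all 31042 probe sets, 5 probe sets with no gene symbol, which the comparisons of genes do not use, passed in the pooled comparison.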

How the results depend on the processing

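The pooled count of 3 genes became 6 with the mean of probe sets, 5 with day by dose groups on the 24 arrays, 12 with groups on all 36 liver arrays and 17 over all probe sets, and ranged from 0 to 9 when each rat was left out (0 without rat 8 or 32, 1 without 3 or 14, 9 without 15). Day 1 gave 1 call with the mean of probe sets (Armc8) and 0 in each fit that left out a rat. Day 4 gave 1 after quantile normalization, 4 among genes higher in liver and 1 with only the 24 arrays, and 1 to 5 when a rat was left out (5 without rat 13). Day 14 gave 1 with only the 8 arrays (Gkn1) and 0 to 6 when a rat was left out (2 without rat 30, 6 without rat 32). Day dependence gave 1 to 2 (2 without rat 4 or 16), Mtmr7 among them in all 28 alternatives. The 520 genes between 60 and 3 mg/kg became 291 among genes higher in liver, where fewer were tested, and 300 with only the 24 arrays. Their count ranged from 356 to 703 when a rat was left out, with 703 reached without rat 35 (60 mg/kg, day 14). Liver against adrenal gave 2 to 4 when a rat was left out (4 without rat 6, 19 or 27). With the animal as a block, the paired fit gave 1, Emcn, in place of 2. The cause of these changes was not tested. Of 2420 values of 95 named results under the alternatives, 2342 kept direction and side of the threshold, 39 lost and 37 gained a call, and 2 changed sign: Kdr was 0.0001 without rat 8 and 0.040 without rat 14 (from -0.17 to 0.040 over the fits that left out a rat, and -0.23 with the mean of probe sets). The precision is limited by 4 rats per day and dose and by scores that do not show how far a signal lies above background.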

Other observations

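Over all probe sets, a fit chosen after seeing the data, 17 passed in the pooled comparison, 4 of them higher and 13 lower at 3 mg/kg. Of these, 3 match several genes and every symbol they list is a globin. Their differences were -0.70, -1.20 and -0.86 (adjusted p from 0.0127 to 0.0209 by limma). In this fit Alas2 passed at an adjusted p of 0.0341 and Hba-a3 at 0.043.

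For 4 genes a probe set that does not represent the gene passed while the one that does lay near 0. Ptafr, the receptor of platelet-activating factor, had scores of 0.81 to 1.81 (median 1.39) at 3 mg/kg and -0.053 to 1.23 (median 0.50) in controls on the first (difference 0.85, adjusted p = 0.0127) and differed by -0.025 on the second. C1h19orf47 differed by 2.33 (adjusted p = 0.004) against -0.17, with scores of -0.91 to 1.39 (median 0.09) at 3 mg/kg and -3.42 to -0.29 (median -2.94) in controls on the probe set that passed. Ecpas, a scaffold of the proteasome, differed by -0.88 against -0.065, and the helicase Shprh by 0.60 against 0.065. Which probe set of each pair reads the gene was not tested. For some genes named above, another probe set lay on the other side of 0 in the pooled comparison: Chm at -0.13, Gata4 at 0.44, Plekha6 at -0.17, Plin1 at -0.0013, Psmc4 at 0.13, Siah1 at 0.25, Sox17 at 0.046 and Vma21 at -0.21.

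Of the 5 probe sets with no symbol that passed, 1 was higher at 3 mg/kg (0.42) and the others were lower (-1.86, -1.04, -0.75 and -0.35). The one with the largest difference scored -3.46 to -0.11 (median -1.49) at 3 mg/kg and -1.11 to 0.80 (median 0.20) in controls.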
